A study of Rattus norvegicus with 12 samples.

Results

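Transcript levels of 7 receptors through which pituitary and related hormones act on the ovary were described in whole rat ovary: Lhcgr, Fshr, Prlr, Ghr, Gnrhr, Tshr and Oxtr. They were chosen by name, as the receptors of luteinizing hormone (LH), follicle stimulating hormone (FSH), prolactin, growth hormone, gonadotropin releasing hormone (GnRH), thyroid stimulating hormone and oxytocin, and each matched a single gene among the 19730 genes of the deposited expression table. The rule itself reads names and no measured value. GnRH is released by the hypothalamus and acts on the pituitary, so Gnrhr is listed here as a receptor of the same hormone axis and not of a pituitary hormone. Of the 7 receptors, 6 had a mean of at least 1 FPKM (mapped fragments scaled by transcript length and library depth, a level per length that can be compared between genes) and were tested among 13430 such genes. Tshr fell under that mean and is given by its values and an exact permutation test.

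The ovaries came from wild type female Sprague Dawley rats at postnatal week 15, with 12 libraries, 1 per rat, in 3 groups of 4. The Control group was untreated and fed standard pellets, and no vehicle treatment was described for it. The PCOS group had received letrozole, an aromatase inhibitor that blocks the conversion of androgen to estrogen, for 30 days together with a high-fat diet, so that the drug and the diet cannot be told apart. The PCOS-MV group had the same induction followed by 30 days of mogroside V, a sweet triterpene glycoside of monk fruit given here as an extract. Per the methods of the study, all rats were collected at the end of the mogroside V period. The PCOS ovaries were thus taken 30 days after the letrozole period had ended. No gavage of saline alone was described for the PCOS group, so mogroside V and its gavage cannot be told apart. Rats entered the model groups after vaginal smears, taken during the induction, had stayed in metestrus or diestrus. The cycle stage at collection was not given for any group in the sources used here.

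From the spacing of low FPKM values each library was estimated to hold about 30900000 to 37700000 fragments. Libraries within a group correlated at Pearson r of 0.9208 to 0.9745 for Control, 0.9721 to 0.9784 for PCOS and 0.9519 to 0.9779 for PCOS-MV (on log2(FPKM + 1) across genes). Control replicate 3 stood apart from the other libraries. Its summed level of 6 genes of epithelia such as that of the reproductive tract (Epcam, Pax8, Cldn3, Cldn7, Pgr and Cuzd1, a list chosen after values were seen) was 333 FPKM, against 1.70 to 7.66 FPKM in the other 11 libraries. In that library Cuzd1 alone, a gene of the uterus and oviduct, stood at 238 FPKM and Epcam, an epithelial adhesion molecule, at 32.3 FPKM. Results that involve the Control group are therefore given with and without it where it matters. Defining markers of ovary were present in all groups: the summed FPKM of 8 granulosa cell genes ranged from 722 to 994 among Control, from 1121 to 1619 among PCOS and from 643 to 1188 among PCOS-MV libraries.

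LH and FSH are released by the pituitary and bind related receptors with a large leucine-rich outer domain and 7 membrane spans, which raise cyclic AMP through the stimulatory G protein. In the ovary FSHR sits on granulosa cells, where it drives aromatase and follicle growth, while LHCGR sits on theca cells, where it drives androgen synthesis, and on granulosa cells of mature follicles and luteal cells, where it mediates ovulation and progesterone synthesis. PRLR and GHR belong to another class, the single-span cytokine receptors that signal through JAK2 and STAT5. In rodents prolactin maintains the corpus luteum, and growth hormone acts partly through IGF1. GNRHR and OXTR couple mainly to phospholipase C, and TSHR is the thyroid relative of the gonadotropin receptors.

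The promoters of the 2 gonadotropin receptors are shown because both transcripts moved in the same direction in both comparisons with the PCOS group. The sequences are from RefSeq (assembly GRCr8) and run 5′ to 3′ from 250 bases before the gene's start to 50 after it. The Lhcgr window lies at chr6:11415165-11415464, plus strand, and the Fshr window at chr6:10952079-10952378, plus strand. Capitals mark the GC box GGGCGG, a motif of the SP1 and SP3 factors, in Lhcgr and the E-box CACGTG, a motif of the USF1 and USF2 factors, in Fshr, which do not overlap another motif searched.
Lhcgr: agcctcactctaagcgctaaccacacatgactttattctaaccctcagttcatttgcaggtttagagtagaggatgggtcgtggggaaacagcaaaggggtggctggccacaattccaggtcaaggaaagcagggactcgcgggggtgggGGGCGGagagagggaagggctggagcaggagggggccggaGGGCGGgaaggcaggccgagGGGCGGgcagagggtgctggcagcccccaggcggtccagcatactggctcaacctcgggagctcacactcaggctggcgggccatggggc
Fshr: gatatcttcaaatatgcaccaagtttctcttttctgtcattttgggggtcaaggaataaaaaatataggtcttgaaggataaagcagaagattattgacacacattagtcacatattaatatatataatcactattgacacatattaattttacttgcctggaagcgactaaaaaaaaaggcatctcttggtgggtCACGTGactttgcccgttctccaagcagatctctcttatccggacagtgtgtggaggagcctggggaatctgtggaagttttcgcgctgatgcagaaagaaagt
The Lhcgr window was rich in G and C (63.7%) and held 3 GC boxes starting 100, 60 and 40 bases before the start, and the Fshr window was poor in them (39.0%) and held 1 E-box starting 54 bases before the start. Searched on both strands, a GC box was present in 33.1% of 33365 promoter windows of the same length and an E-box in 6.43%. Neither window held the SF-1 element CAAGGTCA (1.52% of windows), the cyclic AMP response element TGACGTCA (1.83%) or the STAT element TTCNNNGAA (8.88%). The windows of Ghr, of Gnrhr and the first of 2 for Prlr held none of these 5 motifs. The second Prlr window held 1 STAT element starting 176 bases before the start, and the Oxtr window held 1 GC box beginning at position 43 after the start, on the opposite strand. A match is a description of letters and not a site of binding.

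In the Control group the receptors differed widely in level, with Prlr at 103.6 ± 16.8 FPKM (SD, n = 4), Gnrhr at 76.5 ± 20.6 FPKM and Lhcgr at 59.0 ± 21.7 FPKM at the top. Ghr followed at 14.7 ± 2.69 FPKM and Fshr at 7.98 ± 2.33 FPKM. Over all 12 libraries Gnrhr, Prlr and Lhcgr stood at the 96.1, 96.0 and 95.1 percentiles of the tested genes by mean FPKM, Ghr at 63.3, Fshr at 48.5 and Oxtr at 8.89. The ranges of Prlr, Gnrhr and Lhcgr overlapped their neighbours' in this order, whereas Lhcgr was above Ghr, Ghr above Fshr and Fshr above Oxtr with no overlap. In the PCOS group Gnrhr (154 FPKM) and Lhcgr (149 FPKM) led, with Prlr at 110 FPKM, and the ranges of these neighbours overlapped, as did those of Ghr and Fshr. In the PCOS-MV group the order of the Control group returned, with overlap between Prlr and Gnrhr, between Gnrhr and Lhcgr and between Oxtr and Tshr.

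**Figure D1:**
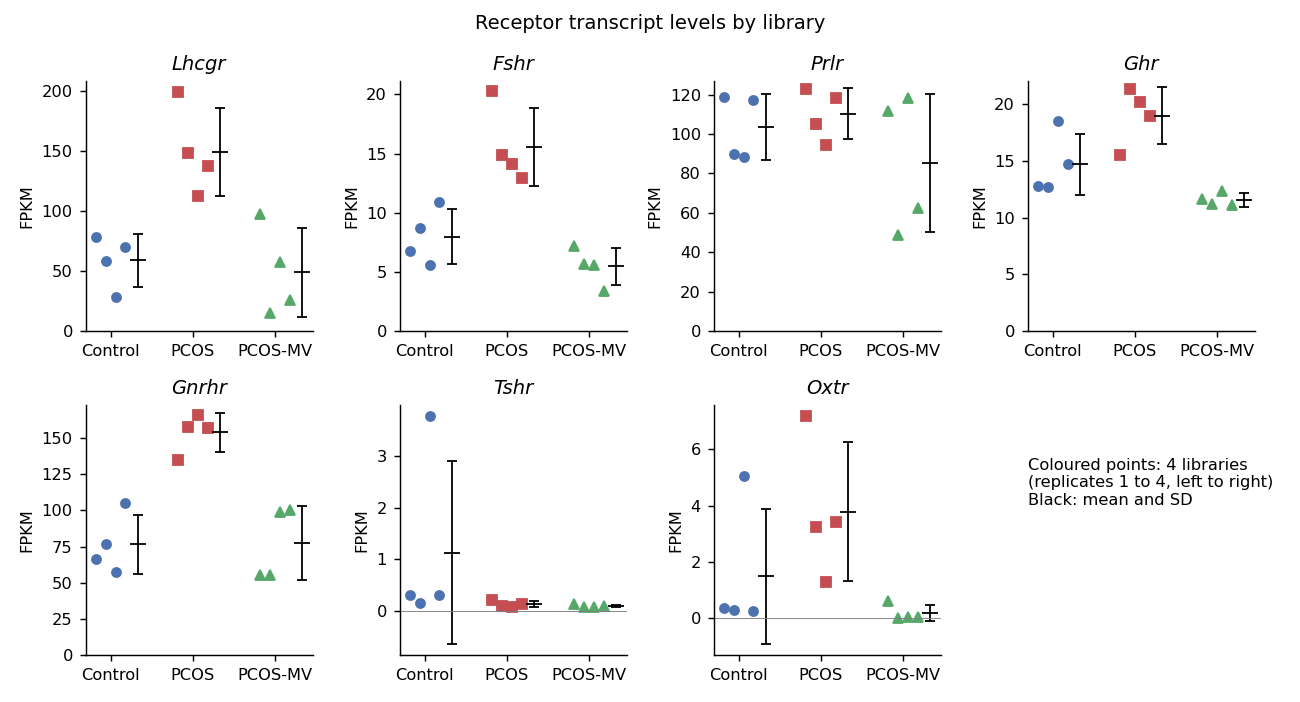
FPKM (linear axes, a scale per gene) of each receptor in the 4 libraries of each group, with the group mean and SD beside them. The 4 PCOS libraries lie above all 4 libraries of both other groups for Lhcgr, Fshr and Gnrhr, while a single Control library carries the Control level of Tshr (3.78 FPKM) and most of that of Oxtr (5.07 FPKM).

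The first comparison asked how letrozole with a high-fat diet changed the receptors (PCOS vs Control). Lhcgr, Fshr and Gnrhr rose, and Prlr, Ghr and Oxtr did not pass the test. Thus 3 of 6 tested receptors were called higher, against 11.9% of all tested genes (27.4% called in either direction), by limma on log2(FPKM + 1) with an adjusted p under 0.05. The groups did not overlap for the same 3 of the 6, with the PCOS group higher, as for 13.8% of all tested genes. In whole ovary, fewer cells of a type and less RNA per cell cannot be told apart.

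Of the gonadotropin receptors, Lhcgr stood at 78.2, 58.5, 28.7 and 70.4 FPKM in Control replicates 1 to 4 and at 199, 148, 113 and 138 FPKM in PCOS replicates 1 to 4. The lowest PCOS library was above the highest Control library. The mean rose 2.53-fold, with a difference of 1.39 on the log2(FPKM + 1) scale (SE 0.31, limma adjusted p = 0.0104). Control replicate 3 was the lowest of the Control group for this gene, and without it the difference was 1.08 (adjusted p = 0.00429). The call was lost when all 12 libraries shared 1 model and 1 estimate of the spread (adjusted p = 0.0561). Fshr stood at 6.79, 8.68, 5.55 and 10.9 FPKM in the Control group and at 20.3, 14.9, 14.1 and 12.9 FPKM in the PCOS group, again with no overlap. Its mean rose 1.95-fold, from 7.98 ± 2.33 to 15.5 ± 3.25 FPKM (SD, n = 4), a log2 difference of 0.90 (SE 0.20, adjusted p = 0.0107).

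Gnrhr, the receptor through which GnRH acts, was at 66.7, 76.6, 57.6 and 105 FPKM in the Control group and at 135, 158, 166 and 157 FPKM in the PCOS group. All PCOS libraries lay within a narrow range above the Control group, with a coefficient of variation of 8.71%. The mean rose 2.01-fold (log2 difference 1.03, SE 0.17, adjusted p = 0.00273), the smallest adjusted p of the 6 receptors. Gnrhr, Lhcgr and Fshr were also called higher with each of the 8 libraries, Control replicate 3 included, left out in turn.

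Among the cytokine receptors, Prlr was at 119, 89.7, 88.6 and 117 FPKM in the Control group and at 123, 105, 94.4 and 118 FPKM in the PCOS group. The groups overlapped, and the log2 difference of 0.09 (95% interval -0.21 to 0.40, adjusted p = 0.635) did not pass the test. Ghr was at 12.8, 12.7, 18.5 and 14.7 FPKM in the Control group and at 15.5, 21.3, 20.2 and 18.9 FPKM in the PCOS group. These groups overlapped through Control replicate 3, the highest Control library, and PCOS replicate 1, the lowest PCOS library. The log2 difference of 0.36 (interval 0.04 to 0.67) missed the threshold (adjusted p = 0.0886), and it passed without Control replicate 3 (0.47, adjusted p = 0.0199), without PCOS replicate 1 (0.44, adjusted p = 0.0471) and in 1 model of all libraries (adjusted p = 0.0484). The table annotated 3 Prlr transcripts, with reading frames of 309, 609 and 309 codons, and 4 Ghr transcripts, and its FPKM did not separate the short and long receptor forms.

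Oxtr, the receptor of oxytocin, was at 0.358, 0.287, 5.07 and 0.252 FPKM in the Control group and at 7.18, 3.25, 1.30 and 3.42 FPKM in the PCOS group. Apart from Control replicate 3, every Control library was below every PCOS library. Over all libraries the difference of 1.18 (SE 0.57) did not pass the test (adjusted p = 0.157), and without Control replicate 3 it was 1.74 (SE 0.36) and did (adjusted p = 0.00945). Tshr was at 0.301, 0.146, 3.78 and 0.303 FPKM in the Control group and at 0.217, 0.0932, 0.0830 and 0.138 FPKM in the PCOS group. Its Control mean of 1.13 FPKM rested on Control replicate 3, and the groups overlapped (two-sided exact permutation p = 0.0571, unadjusted). Without Control replicate 3, 5 of 6 tested receptors were called higher in the PCOS group (12.2% of all tested genes were). Oxtr is among the 5 and entered the test only through its high PCOS values, with a mean of 0.229 FPKM over the 7 remaining Control and PCOS-MV libraries, and without it 4 of 5 were called. The high Oxtr and Tshr values of that library came with the epithelial genes named above and with the highest summed level of 5 smooth muscle genes (888 FPKM, against 324 to 665 FPKM in the other libraries), whose part in them was not tested.

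**Figure D2:**
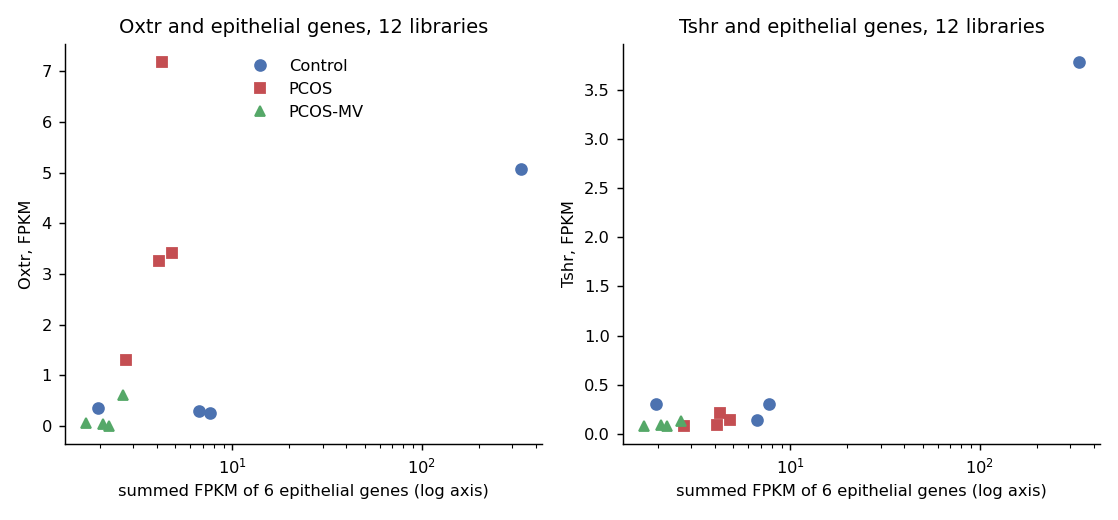
FPKM of Oxtr and Tshr (linear axes) against the summed FPKM of 6 epithelial genes (log axis), 1 point per library. Control replicate 3 lies alone at 333 FPKM of epithelial genes with 5.07 FPKM of Oxtr and 3.78 FPKM of Tshr, and the PCOS libraries reach 7.18 FPKM of Oxtr at epithelial sums of 2.75 to 4.82 FPKM.

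The second comparison asked what followed mogroside V after the same induction (PCOS-MV vs PCOS). It shares the PCOS libraries with the first, so a high or low PCOS library moves both in opposite directions. Lhcgr, Fshr, Gnrhr, Ghr and Oxtr fell, and Prlr did not pass the test. These were 5 of 6 tested receptors, against 11.4% of all tested genes called lower (25.7% called in either direction). Oxtr passed the filter on low genes only through the PCOS group, since its mean over the 8 other libraries was 0.834 FPKM, so it was bound to differ, and without it 4 of 5 were called. The same 5 did not overlap between the groups, with the PCOS-MV group lower, as for 13.3% of all tested genes. Called higher in the first comparison and lower in the second were 3 of the 6, Lhcgr, Fshr and Gnrhr, against 7.64% of all tested genes.

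Lhcgr was at 97.8, 15.2, 57.5 and 26.0 FPKM in PCOS-MV replicates 1 to 4, all below the PCOS libraries but far apart from each other. Its mean was 49.1 ± 37.1 FPKM (SD, n = 4), a coefficient of variation of 75.5%, and the fall was 1.89 on the log2 scale (difference -1.89, SE 0.51, adjusted p = 0.0269). The call was lost without PCOS replicate 1 (adjusted p = 0.0683), PCOS replicate 2 (0.0631), PCOS replicate 4 (0.0618) or PCOS-MV replicate 4 (0.0669), and also when no filter on low genes was applied (0.0550). Fshr was at 7.21, 5.65, 5.63 and 3.36 FPKM in the PCOS-MV group, with a mean of 5.46 ± 1.58 FPKM. It fell with a smaller error (log2 difference -1.37, SE 0.20, adjusted p = 0.00206), and the PCOS mean was 2.85 times the PCOS-MV mean.

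Gnrhr was at 55.5, 55.6, 99.3 and 100.2 FPKM in the PCOS-MV group, in a lower and a higher pair, both under the PCOS libraries. The log2 difference was -1.03 (SE 0.22, adjusted p = 0.00961). Ghr was at 11.6, 11.2, 12.4 and 11.1 FPKM, the tightest of all the receptors within a group, with a coefficient of variation of 5.16%. It fell by 0.66 on the log2 scale (SE 0.10, adjusted p = 0.00229).

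Oxtr was at 0.603, 0, 0.0653 and 0.0352 FPKM in the PCOS-MV group. At the estimated depths these values stand for about 25.3, 0, 3.0 and 1.52 fragments, so that replicates 2 to 4 were at or under 3 fragments. The PCOS mean was 21.5 times the PCOS-MV mean, a ratio that rests on PCOS-MV replicate 1 and was 113 without it. The log2 difference was -1.91 (SE 0.35, adjusted p = 0.00537), or -4.06 where 0.1 and not 1 was added to FPKM before the logarithm. Prlr was at 112, 48.8, 118 and 62.3 FPKM in the PCOS-MV group, where replicates 1 and 3 matched the PCOS range and replicates 2 and 4 were lower than every other library. The difference of -0.46 (95% interval -1.08 to 0.17) did not pass the test (adjusted p = 0.259). Tshr was at 0.134, 0.0825, 0.0844 and 0.0894 FPKM and overlapped the PCOS group (exact permutation p = 0.257).

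**Figure D3:**
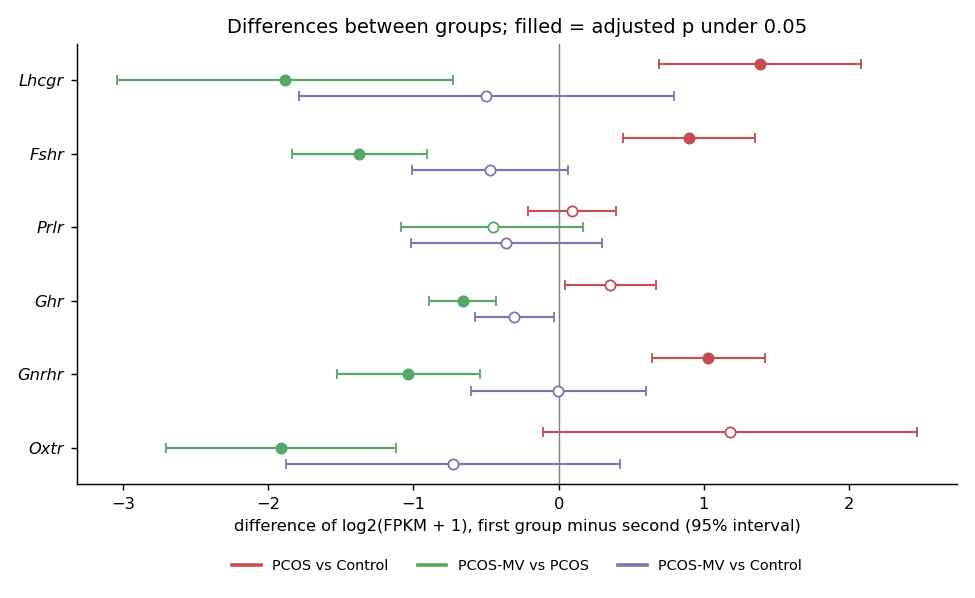
Difference between group means of log2(FPKM + 1) for the 6 tested receptors in 3 comparisons, with 95% intervals, where filled points passed an adjusted p under 0.05. PCOS vs Control points lie above 0 (0.09 to 1.39) and PCOS-MV vs PCOS points below 0 (-0.46 to -1.91), while no PCOS-MV vs Control point passed.

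The third comparison asked how far the PCOS-MV group stood from the Control group, and none of the 6 tested receptors was called (limma, adjusted p from 0.562 to 0.999). The background was low here as well, since 1 of 13430 genes, or 0.00745%, was called, with 1142 genes at an unadjusted p under 0.05. Ghr was the only receptor among the 6 with an unadjusted p under that value (0.0320). All 4 PCOS-MV libraries were under all 4 Control libraries for Ghr, as for 2.29% of all tested genes, with a log2 difference of -0.31 (95% interval -0.58 to -0.03, adjusted p = 0.562). Tshr was likewise lower in every PCOS-MV library (exact permutation p = 0.0286, the smallest that 4 against 4 allows and 1 of 21 such tests made, unadjusted). For Gnrhr the difference was -0.00 with an interval of -0.60 to 0.60. The interval was -1.79 to 0.79 for Lhcgr, -1.01 to 0.06 for Fshr, -1.02 to 0.30 for Prlr and -1.88 to 0.43 for Oxtr, so differences of these sizes could not be told from none. Without Control replicate 3 none of the 6 was called either (limma, adjusted p from 0.655 to 0.916). The difference then shrank to -0.20 for Ghr and from -0.73 to -0.17 for Oxtr. It grew to -0.80 for Lhcgr, -0.61 for Fshr, -0.43 for Prlr and -0.12 for Gnrhr.

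Within groups, Lhcgr and Prlr varied together from rat to rat. After each group's mean was taken off, their log2 values had a Pearson r of 0.903 over the 12 libraries, although Prlr did not pass the test in any comparison of groups. Each also followed Cyp17a1, the theca cell enzyme of androgen synthesis, with r of 0.951 for Lhcgr and 0.960 for Prlr on the same scale. Cyp17a1 was at 88.1, 1.57, 53.4 and 6.41 FPKM in PCOS-MV replicates 1 to 4, so that replicates 2 and 4 were low for all 3 genes. Lhcgr and Prlr also spread most in the PCOS-MV group (coefficients of variation of 75.5% and 40.9%). That group therefore weighs most in these r values, which were not computed for each group alone. In the PCOS group Cyp17a1, Lhcgr and Prlr were each highest in replicate 1 and lowest in replicate 3. Lhcgr also followed Cyp11a1, the side-chain cleavage enzyme that opens steroid synthesis, within groups (r = 0.931), while the pooled r was 0.156. For Prlr the within-group r to Cyp11a1 was 0.841 (pooled 0.532), and for Fshr it was 0.552 (pooled -0.118). Lhcgr and Fshr were less alike within groups (r = 0.586) than pooled (0.847). Gnrhr varied apart from both, with r of 0.11 to Lhcgr and -0.07 to Fshr within groups. These values are descriptions over 12 libraries of whole ovary, in which the summed levels of cell type markers differed between libraries. The part of tissue composition in them was not tested.

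**Figure D4:**
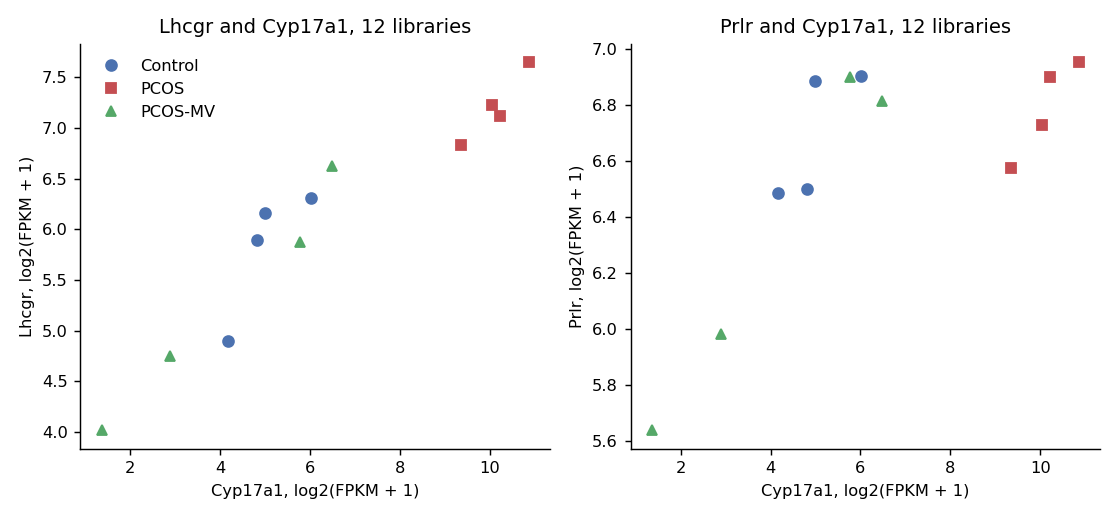
log2(FPKM + 1) of Lhcgr and of Prlr against that of Cyp17a1, 1 point per library. Lhcgr climbs with Cyp17a1 within and across groups (r 0.951 over the 12 libraries with group means taken off). Prlr climbs within groups (r 0.960 on the same scale), over the widest span in PCOS-MV. The PCOS libraries, though far higher in Cyp17a1, lie in about the same Prlr range as the Control libraries.

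Over the 12 libraries the genes most like Lhcgr by Pearson r of log2(FPKM + 1) were Acbd5 (0.963), Sgk3 (0.951) and Cyp17a1 (0.950). The genes most like Fshr were Usp37 (0.966) and Fam49b (0.959). For Prlr they were Mars2 (0.932), Entpd5 (0.924) and Bckdha (0.884), and for Ghr they were Lrig1 (0.926), Nhlrc1 (0.926) and Sclt1 (0.923). Gnrhr was most like Gabarapl1 (0.943), Kmt2e (0.939) and Crbn (0.932), and Oxtr most like Lefty2 (0.935), Stc2 (0.934) and Aldoc (0.932). With group means taken off these values were 0.922 to 0.951 for Lhcgr, 0.863 and 0.906 for the 2 named for Fshr, 0.918 to 0.977 for Prlr, 0.715 to 0.874 for Ghr, 0.790 to 0.814 for Gnrhr and 0.842 to 0.880 for Oxtr. None of the genes named here was named for more than 1 receptor.

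Lhcgr and Fshr are neighbours on chromosome 6. In the coordinates of the authors' table, whose build is not given in the sources used here, Lhcgr spans 12493943 to 12554439 and Fshr 12796383 to 12997817, both on the minus strand with 241943 bases between them. Strand and order are reversed against the GRCr8 promoter windows above, which lie on the plus strand with Fshr at the lower coordinate. The other genes of the table within 500 kb were Foxn2, Ppp1r21, Ston1 and Gtf2a1l, all on the Lhcgr side. Ston1, which encodes the endocytic adaptor stonin 1, moved the opposite way to both receptors, with means of 20.5 FPKM for Control and 12.2 FPKM for PCOS (log2 difference -0.71, adjusted p = 0.00751) and of 22.6 FPKM for PCOS-MV (0.81, adjusted p = 0.0209). Foxn2, a forkhead factor, was not called in PCOS vs Control (-0.23, adjusted p = 0.0507) and was called higher in PCOS-MV vs PCOS (0.32, adjusted p = 0.0458). Ppp1r21 was called in neither (0.22 and -0.05), and Gtf2a1l was at about 0.230 FPKM and was not tested. The other receptors lie on chromosomes 2 (Prlr and Ghr), 14 (Gnrhr), 4 (Oxtr) and 6 (Tshr, from 115170865 to 115306871).

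Transcripts of the hormones themselves were scarce in ovary. Of 10 ligand genes looked up, 7 were in the table under the name used and none reached a mean of 1 FPKM over the 12 libraries. Gpha2, a glycoprotein hormone chain related to Cga, had the highest such mean (0.533 FPKM). Lhb, the beta chain of LH, followed at 0.521 FPKM. Its Control mean of 1.12 FPKM rested on 3.38 FPKM in Control replicate 3, and it was at 0.189 and 0.250 FPKM in the PCOS and PCOS-MV groups. Cga, the chain shared by LH, FSH and thyroid stimulating hormone, had means of 0.0864 FPKM in Control, 0.676 FPKM in PCOS and 0.300 FPKM in PCOS-MV ovaries. Gnrh1 had means of 0.390, 0.312 and 0.358 FPKM, Oxt 0.185, 0.159 and 0.177 FPKM and Tshb 0.113, 0.122 and 0.0997 FPKM in the same order. Prl was listed at 0 in all Control libraries and at most at 0.123 FPKM elsewhere.

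Signalling downstream of the G-protein-coupled receptors was mixed. Of 21 genes of G-protein and cyclic AMP signalling, 5 were higher, 6 lower and 10 not called in PCOS vs Control, and 3, 3 and 15 in PCOS-MV vs PCOS. The median log2 differences were -0.06 and -0.03, beside -0.03 and 0.03 over all tested genes. Of all tested genes, 27.4% were called in either direction in the first comparison and 25.7% in the second. These shares are the background for the counts of this list and of the lists below. No list was tested against them. Prkar2b, a regulatory subunit of protein kinase A that FSH is known to induce, rose from 109.9 to 278 FPKM in the PCOS group (1.33, adjusted p = 0.00408) and fell to 112 FPKM in the PCOS-MV group (-1.34, adjusted p = 0.00848). Adcy3, an adenylyl cyclase that makes cyclic AMP, fell (-1.34, adjusted p = 0.000398) and rose (1.51, adjusted p = 0.00461). Pde4d, a phosphodiesterase that degrades it, did likewise (-1.49, adjusted p = 0.00165, and 1.46, adjusted p = 0.0109). Prkaca, the catalytic subunit, fell by 0.62 (adjusted p = 0.0155) and then rose by 1.10 (adjusted p = 0.00178).

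Genes known to respond to FSH in granulosa cells divided as well, with 3 of 8 higher, 1 lower and 4 not called in PCOS vs Control (median -0.24), and 1 higher, 2 lower and 5 not called in PCOS-MV vs PCOS (median -0.02). Cyp19a1, which encodes the aromatase that letrozole inhibits, rose from 16.7 to 58.5 FPKM (1.74, adjusted p = 3.64e-05) and fell to 11.5 FPKM (-2.81, adjusted p = 0.0114). Inha, the inhibin alpha chain, went from 489.7 to 806.5 FPKM (0.72, adjusted p = 0.00832) and then to 548 FPKM (-0.56, adjusted p = 0.0310). Inhba, a beta chain of inhibin and activin, rose by 1.36 (adjusted p = 0.000429), and its later difference of -1.56 missed the threshold (adjusted p = 0.0557). Fst, the activin antagonist follistatin, fell by 0.74 in the PCOS group (adjusted p = 0.00713) and rose by 0.87 in the PCOS-MV group (adjusted p = 0.00508).

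Of 6 genes listed as targets of LH in theca cells, 2 were higher, 3 lower and 1 not called in PCOS vs Control (median -0.74), and 1, 2 and 3 in PCOS-MV vs PCOS (median 0.40). The 2 that rose, Insl3 and Cyp17a1, are also among the theca markers described below. Star, Cyp11a1 and Scarb1 were the 3 called lower, so this list went both ways. Insl3, a peptide hormone of theca cells, went from 5.70 to 1032 FPKM (7.43, adjusted p = 8.21e-06) and Cyp17a1 from 34.6 to 1190.0 FPKM (5.12, adjusted p = 6.33e-05). In the PCOS-MV group Insl3 fell to 7.89 FPKM and Cyp17a1 to 37.4 FPKM. Star, which moves cholesterol into mitochondria, went the other way, from 2219 to 716 FPKM (-1.70, adjusted p = 0.00241) and back to 2054 FPKM (1.57, adjusted p = 0.00742). Scarb1, the HDL receptor that supplies cholesterol, fell by 1.34 in the PCOS group (adjusted p = 0.0188), and its rise of 0.70 in the PCOS-MV group did not pass the test (adjusted p = 0.340).

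Of 13 genes of the LH surge, 9 could be tested. In PCOS vs Control none of them was called higher, 2 were lower and 7 not called (median -0.56), and in PCOS-MV vs PCOS 3 were called in each direction and 3 not called (median 0.01). Adamts1, a matrix protease of ovulation, fell by 1.33 (adjusted p = 0.0112) and rose by 1.12 (adjusted p = 0.0161). Cebpb, a transcription factor needed for luteinization, fell by 1.06 (adjusted p = 0.00198) and rose by 0.96 (adjusted p = 0.0126). Ereg, an EGF-like factor, rose by 1.06 in PCOS-MV vs PCOS (adjusted p = 0.0312), and Egr1, an immediate early transcription factor, fell by 0.93 there (adjusted p = 0.0474). Ereg had means of 1.02 FPKM in Control, 0.362 FPKM in PCOS and 1.97 FPKM in PCOS-MV ovaries. It passed the filter on low genes only through the PCOS-MV group, so its place among the 3 called higher was not independent of that filter. Pgr, also among the epithelial genes named earlier, passed the filter only through Control replicate 3 and was called in neither comparison. It stood at 13.05 FPKM there, against 0.0903 to 0.567 FPKM in the other libraries.

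For the cytokine receptors Prlr and Ghr, none of 12 JAK-STAT genes was called in PCOS vs Control by limma (3 at an unadjusted p under 0.05, median 0.16), and 3 were lower in PCOS-MV vs PCOS with 9 not called (median -0.09). Jak2, the kinase bound to both receptors, was at 28.7, 40.4 and 23.1 FPKM in the 3 groups and fell by 0.78 in PCOS-MV vs PCOS (adjusted p = 0.00236). Socs2 and Socs1, inhibitors that this pathway induces, fell by 0.52 (adjusted p = 0.0150) and by 0.43 (adjusted p = 0.0178). Of 4 tested growth hormone targets, 1 was higher and 1 lower in PCOS vs Control (median -0.21), and 1 higher and 2 lower in PCOS-MV vs PCOS (median 0.11). Socs2 and Cish among them also stand in the JAK-STAT list, so the counts of these lists overlap. Igf1 went from 42.4 to 158 FPKM (1.87, adjusted p = 9.90e-06) and to 52.1 FPKM (-1.65, adjusted p = 0.00229). Igfbp3, a carrier of IGF1, went from 32.3 to 5.16 FPKM (-2.23, adjusted p = 0.00368) and to 36.3 FPKM (2.33, adjusted p = 0.00546). Of 3 tested prolactin targets of luteal cells, 2 were lower in PCOS vs Control and 1 was higher in PCOS-MV vs PCOS (medians -1.34 and 0.70). Both medians are the values of Scarb1, which was already counted among the LH targets of theca cells, so these lists are not separate observations. A2m, alpha-2-macroglobulin, was called in both comparisons (-2.38, adjusted p = 0.0168, and 2.20, adjusted p = 0.0170).

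Of 8 factors that act on gonadotropin receptor transcripts or promoters, 4 were higher, 1 lower and 3 not called in PCOS vs Control (median 0.24), and 2 were lower with 6 not called in PCOS-MV vs PCOS (median -0.06). Thus 5 of the 8 were called in the first comparison, against 27.4% of all tested genes, and 2 in the second, against 25.7%. Nr5a1, which encodes the steroidogenic factor SF-1, rose from 53.9 ± 4.94 to 112 ± 7.74 FPKM (SD, n = 4; 1.04, adjusted p = 7.52e-05) and fell to 67.2 ± 14.3 FPKM (-0.75, adjusted p = 0.00786). Nr2f2, an orphan nuclear receptor, rose by 0.67 (adjusted p = 0.000881) and fell by 0.57 (adjusted p = 0.00679), and its relative Nr2f6 fell by 0.45 in the PCOS group (adjusted p = 0.0130). Usf2, a factor of the E-box marked in the Fshr window, rose by 0.43 (adjusted p = 0.0155), and its difference of -0.29 in PCOS-MV vs PCOS did not pass the test (adjusted p = 0.0865). Sp1 and Sp3, factors of the GC box, and Mvk, a binding protein of the Lhcgr transcript, were the 3 that were not called, with log2 differences of 0.17, 0.10 and -0.55.

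Of 11 related receptors that could be tested, 2 were called in each comparison (18.2%, against 27.4% and 25.7% of all tested genes). Avpr1a, a vasopressin receptor, was the only one tested of 8 other receptors of pituitary hormones, with means of 2.06 FPKM in Control, 2.20 FPKM in PCOS and 2.58 FPKM in PCOS-MV ovaries. Lgr4 and Lgr6, leucine-rich relatives of Fshr and Lhcgr, were the 2 tested of 5 and were not called in either comparison. Of 8 tested cytokine receptors related to Prlr and Ghr, 1 was higher and 1 lower in each comparison (medians -0.02 and 0.21). Lifr, the receptor of leukemia inhibitory factor, rose from 14.02 to 52.4 FPKM (1.83, adjusted p = 0.000185) and fell to 11.96 FPKM (-2.03, adjusted p = 0.000139). Il2rg, the shared interleukin receptor chain, fell by 0.47 in the PCOS group (adjusted p = 0.0218), and Osmr, the oncostatin receptor, rose by 0.80 in PCOS-MV vs PCOS (adjusted p = 0.0386).

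Cell type markers differed between the groups in several directions. The summed FPKM of 5 theca genes spanned 49.8 to 95.1 among Control, 1580 to 3079 among PCOS and 29.8 to 130.1 among PCOS-MV libraries, and of these genes 2 (Cyp17a1 and Insl3) were called higher in PCOS vs Control, 1 (Ptch1, -0.43) lower and 2 not called. Of the 8 granulosa genes, 3 were called higher in PCOS vs Control and 5 not called (median -0.00), and 2 were lower in PCOS-MV vs PCOS. The 3 were Cyp19a1, Inha and Inhba, which also stand among the FSH targets above, so the 2 counts are not separate observations. The sum of 4 luteal genes spanned 92.6 to 172 FPKM among Control, 52.7 to 83.9 among PCOS and 85.3 to 210.1 among PCOS-MV libraries. That sum was carried by Ptgfr (mean 97.0 FPKM in Control and 21.0 FPKM in PCOS ovaries, -2.07), whereas Parm1 was called higher (0.68) and the other 2 genes were not called (median -0.12). The sum of 4 endothelial genes was 74.9 to 92.7, 48.4 to 58.9 and 66.4 to 89.6 FPKM, with 3 of the genes called lower in PCOS vs Control and 1, Vwf, called higher (0.41). Sums of 6 adipocyte genes ran, in the same order of groups, from 25.3 to 83.6, from 13.9 to 25.4 and from 10.7 to 17.1 FPKM. The 6 stroma genes summed to 747 to 1173, 629 to 701 and 673 to 1141 FPKM, of which Lum and the collagens Col1a1 and Col3a1 were called lower in PCOS vs Control, Pdgfra (0.81) and Tcf21 (0.49) higher, and 1 was not called. The 6 oocyte genes summed to 14.6 to 25.1, 13.7 to 16.1 and 16.9 to 25.8 FPKM, and the 5 leukocyte genes to 43.7 to 65.2, 65.2 to 73.2 and 51.4 to 69.2 FPKM. Of the leukocyte genes, 2 were called higher in PCOS vs Control and 3 not called. In PCOS-MV vs PCOS 1 was higher, 2 lower and 2 not called. None of the 5 tested oocyte or 5 tested smooth muscle genes was called by limma in either comparison with the PCOS group, and 2 oocyte genes had an unadjusted p under 0.05, both in PCOS-MV vs PCOS. Cidec, Lep and Retn of the adipocyte list and Cdhr3 of the oviduct list were at 0 in at least 1 library. So was Cd79al, the name under which Cd79a of the leukocyte list was found, in PCOS-MV replicate 4. No defining marker of the theca, granulosa, luteal or endothelial lists was at 0 in any library. The part of these differences in those of the receptors was not tested.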

How the data were processed

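Total RNA of 12 whole ovaries was sequenced, and the deposited table gives FPKM per gene as the authors computed it, with columns of their own fold changes and p-values, which were not used. The methods of the study name HISAT2 and featureCounts, whereas the submitters' processing notes name STAR 2.5.1b and HTSeq 0.6.0, and FPKM was derived, per those methods, from gene length and the reads counted for each gene. The table has 26928 lines for 19730 genes, and lines of the same gene hold identical values. Columns headed MG were taken as the PCOS-MV group. Values were used as log2(FPKM + 1) for the genes that averaged 1 FPKM or more. Each pair of groups was compared with limma 3.58.1 in R 4.3.3 (lmFit, then eBayes with a trend), with Benjamini-Hochberg adjustment over 13430 genes and a call at an adjusted p under 0.05. Two-sided exact permutation tests of single genes used the 70 divisions of 4 against 4. The fit was tested on simulated data. Depth came from the step between low FPKM values, where 64.4% to 75.6% of low values lay within 0.1 step of a whole number of fragments and 20% would by chance, so fragment numbers are approximate. Alternatives were another pseudocount (0.1), no filter or a mean of 5 FPKM, median-ratio scaling, 1 model of all libraries, replicate block and leaving out each library. The set of receptors, though matched by name alone, was proposed with earlier results of these data known, as were the gene lists and tests. In each pathway list the called genes with the largest differences are named, up to 4 a list. Gene lists rest on general knowledge. Fshb, Gh1, Gphb5, Mc1r, Avpr1b, Akr1c18, Pecam1, Foxj1 and Ovgp1 were not analysed here, nor a Tshr promoter. For each tested receptor the 3 genes with the most similar levels are named, except 1 for Fshr that is not reported here.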

Additional observations from a re-analysis of the deposited data

Results flagged for a closer look

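In groups of 4, a library was singled out when its gap to the nearest other exceeded Dixon's 95% critical value. For independent groups of normally distributed values, chance alone does this in about 1 of 20, or about 10.3 of the 207 groups examined. Here 16 were found, of which 4 among the 21 groups of the receptors. Groups at 0 in all libraries but 1 meet the rule with any value, and marker sums repeat their own genes. The numbers 16 and 10.3 are therefore not directly comparable. Control replicate 3 held 5 of the 16. It had Tshr at 3.78 FPKM (0.146 to 0.303 in the other Control libraries), Oxtr at 5.07 FPKM (0.252 to 0.358), Lhb at 3.38 FPKM (0.184 to 0.528), Tekt1, a gene of cilia, at 7.36 FPKM (1.56 to 2.07), and a sum of oviduct epithelium markers of 11.5 FPKM (1.75 to 2.79).

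PCOS-MV replicate 1 had Tshr at 0.134 FPKM (0.0825 to 0.0894 in the other PCOS-MV libraries), Oxtr at 0.603 FPKM (0 to 0.0653) and Insl3 at 14.5 FPKM (4.91 to 6.27). PCOS-MV replicate 3 had Usf2 at 34.2 FPKM (37.9 to 38.6), Cdh5, an endothelial cadherin, at 40.4 FPKM (21.5 to 24.4) and a sum of endothelium markers of 89.6 FPKM (66.4 to 67.8). PCOS-MV replicate 4 had Prl at 0.0289 FPKM, with 0 in the others. In the PCOS group, replicate 3 had Ereg at 0.837 FPKM (0.160 to 0.254), replicate 4 had Igfbp3 at 5.97 FPKM (4.78 to 4.97) and Igf1 at 129.6 FPKM (165 to 170.3), and replicate 1 had Cdhr3 at 0.0126 FPKM, with 0 in the others. The causes were not tested.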

How the results depend on the processing

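Of the alternative values for the receptors and the counts of called genes, 335 kept their direction and side of the threshold or moved little, 13 moved, 5 changed sign, 4 became called and 6 lost their call. In 1 model of all 12 libraries Lhcgr missed the threshold in PCOS vs Control (1.39, adjusted p = 0.0561) and Ghr passed it (0.36, adjusted p = 0.0484). With no filter Lhcgr missed it in PCOS-MV vs PCOS (-1.89, adjusted p = 0.0550). With a pseudocount of 0.1 the Tshr differences were -1.46 in PCOS vs Control, -0.21 in PCOS-MV vs PCOS and -1.67 in PCOS-MV vs Control. Median-ratio scaling gave Gnrhr 0.0015 in PCOS-MV vs Control, and it raised the called genes from 0 to 1 in the JAK-STAT list for PCOS vs Control. For PCOS-MV vs PCOS it raised them from 2 to 4 among receptor regulators and from 0 to 1 in the oviduct list. With 1 library left out in turn, PCOS vs Control ranged from 0.30 to 0.47 for Ghr and from 0.88 to 1.74 for Oxtr, and Tshr from -0.83 to -0.14. The number of receptors called in PCOS vs Control was 3 to 5. PCOS-MV vs PCOS ranged from -2.32 to -1.45 for Lhcgr. For PCOS-MV vs Control, Gnrhr ranged from -0.14 to 0.16, with the sign changed in 4 of 8 fits, and the genes called numbered 1 to 4, or 0 with a mean of 5 FPKM required. The causes were not tested.

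Replicate numbers are shared by the groups, but deviations of same-numbered libraries correlated at only -0.05 to 0.22, so the numbers were not taken as pairs. With the replicate number as a block no call of a receptor changed (for example Lhcgr, PCOS vs Control, 1.39, adjusted p = 0.00387), and the genes called numbered 2905 in PCOS vs Control (3684 without the block), 3079 in PCOS-MV vs PCOS (3448) and 0 in PCOS-MV vs Control (1). Depth limits Oxtr most, since its lowest values stand for about 0, 1.52 and 3.0 fragments. The lowest Tshr value stands for about 13.5 fragments. The p-values measure the spread between 4 rats a group.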
